A study of Mus musculus with 6 samples.

Results

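The genes described here code for proteases that act outside or at the surface of cells, for a few close relatives that act inside them, and for the proteins that inhibit them. They were chosen by gene symbol from the listed genes of the deposited table, taking the matrix metalloproteinases (Mmp), the ADAM, ADAMTS and ADAMTS-like families, the tissue inhibitors of metalloproteinases (Timp), Reck, the serpins, cathepsins (Cts), cystatins (Cst), the plasminogen activators and their receptor (Plau, Plat, Plaur), the Prss, Tmprss and Htra serine proteases, the Spint inhibitors, Bmp1, the proprotein convertases (Pcsk) and the calpains (Capn). The rule used names only and found 70 of the 7320 listed genes. By family 41 of them were counted as proteases, 24 as inhibitors, not all of which are known to inhibit, and 5 as neither (the adhesive matrix proteins Adamtsl4 and Adamtsl5, the urokinase receptor Plaur, the collagen chaperone Serpinh1 and the calpain regulatory subunit Capns1). Mmp2, Mmp9, Timp2, Plat, Reck and Bmp1 were not among the listed genes and are not analysed here.

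Proteolysis around a cell is set by the balance of proteases, which are mostly made as inactive precursors, and of inhibitors that block them in a fixed pairing of classes. TIMPs block metalloproteinases, most serpins and the Spint proteins block serine proteases, and the classical cystatins block cysteine cathepsins. In epithelial ovarian cancer these enzymes have been studied for their part in shedding from the ovary, survival in ascites and invasion of the peritoneal lining.

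RNA was compared between ID8 and KMF cells. ID8 is a line of transformed mouse ovarian epithelial cells of the C57Bl6 strain, and KMF (labelled ID8-IP) was recovered from the ascites of tumor-bearing mice that had been injected with ID8 cells. Both lines were untreated and had grown for 5 days as tumorspheres, floating clusters of cells in serum-free PromoCell XF medium, and each gave 3 libraries, from passages 23, 24 and 35 of ID8 and passages 14, 17 and 22 of KMF. The passage ranges did not overlap, so passage and line cannot be told apart, and each line is 1 derivation, so the p-values below measure the spread between independent RNA samples of these lines. Libraries held between 23108407 and 33212313 fragments on genes, and 3 counts in a library amount to 0.0903 to 0.13 CPM, a count scaled to the library total. All fold changes are KMF over ID8 on the log2 scale with their standard error, from edgeR's quasi-likelihood test fitted on all listed genes, with Benjamini-Hochberg adjusted p-values counted over the 17359 genes the authors tested. Levels are FPKM, fragments scaled to gene length and to library total, so that genes of different length can be set side by side. In bulk RNA of this kind, fewer cells of a type and less RNA per cell cannot be told apart.

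Proteases and inhibitors changed in both directions between the lines. Of the 70 genes, 62 had enough counts to be fitted, and 58 of these (93.5%) passed an adjusted p of 0.05, against 92.9% of all fitted genes, a share that is high because the table lists only genes the authors had already called on the same libraries. Equal numbers rose and fell in KMF, 29 each, against backgrounds of 45.4% higher and 47.5% lower among all fitted genes. Among proteases 16 rose and 18 fell, and among inhibitors 9 rose and 11 fell, the 11 including 3 cystatins (Cst8, Cst9 and Cst12) of a subgroup that lacks conserved inhibitory sites. In all 58 called genes the 3 KMF libraries lay wholly above or below the 3 ID8 libraries, which was also true of 99.1% of all called genes. Changes of at least 2-fold were called for 44 of the 62 (71.0%), 21 of them higher and 23 lower, against 40.5% of all fitted genes. The median level of the 70 genes over the 6 libraries, 5.40 FPKM, was below the 9.08 FPKM of all listed genes. The median log2 fold change of the fitted members was 0.31 against -0.23 for all fitted genes, but its sign turned under other filters and tools (-0.51 with DESeq2, -0.46 without a filter on low counts), so no net direction is read from it. A mean above 1 FPKM was seen in both lines for 38 of the 70, in ID8 alone for 13, in KMF alone for 4 and in neither line for 15. For all 7320 listed genes these counts were 5362, 597, 313 and 1048.

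**Figure D1:**
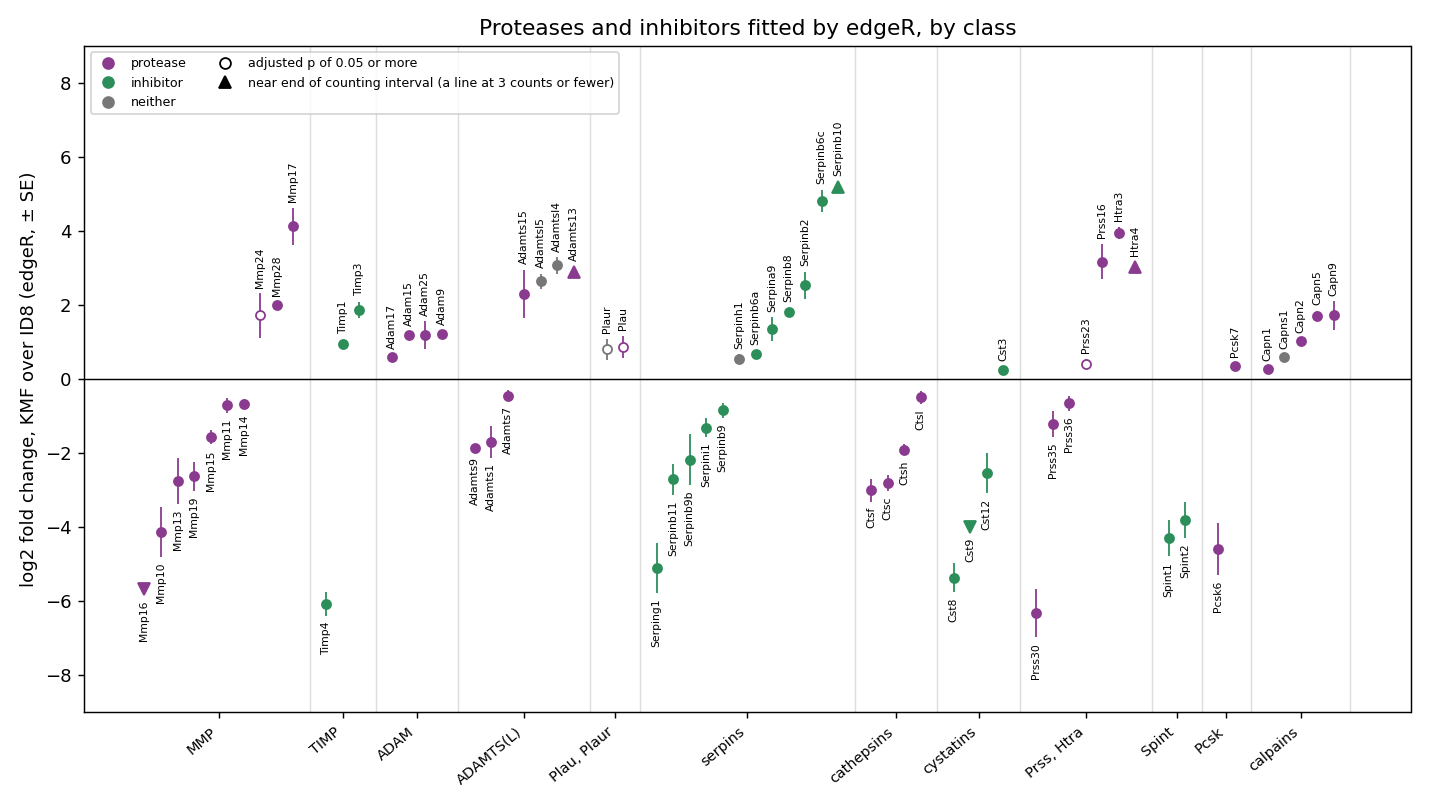
Log2 fold change of KMF over ID8 for the 62 fitted genes, grouped by class along the x axis and coloured as protease, inhibitor or neither, with bars of ± 1 SE from edgeR and open circles where the adjusted p was 0.05 or more. Triangles mark 5 genes whose counts in one of the lines never exceeded 3, drawn at the near end of the 95% counting interval of their ratio. Cathepsins and Spint inhibitors lie wholly below 0 and ADAMs and calpains wholly above it, while serpins spread from -5.10 for Serping1 to 4.81 for Serpinb6c and beyond.

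Matrix metalloproteinases were mostly lower in KMF. Of the 10 listed members 7 fell, 2 rose and Mmp24 did not pass the test, where 47.5% of all fitted genes fell and 45.4% rose. Mmp10 and Mmp13, secreted enzymes known as stromelysin 2 and collagenase 3, fell from levels that differed widely among the ID8 libraries. Mmp10 (ENSMUSG00000047562, chr9:7502352-7510238 of mm10, plus strand) was at 9.60, 22.6 and 3.44 FPKM in ID8 replicates 1 to 3 and at 0.740, 0.579 and 0.665 FPKM in KMF. Mmp13 (ENSMUSG00000050578, chr9:7272514-7283333, plus strand) was at 12.0, 26.2 and 4.62 FPKM in ID8 and at 2.58, 2.52 and 1.17 FPKM in KMF. The lines did not overlap for either gene, yet ID8 replicate 2 stood 6.57-fold above ID8 replicate 3 for Mmp10 and 5.66-fold for Mmp13. Mmp10 fell by 4.13 ± 0.69 (edgeR, adjusted p = 0.00223) and fell by 3.25 without ID8 replicate 2. Mmp13 fell by 2.75 ± 0.62 (edgeR, adjusted p = 0.00964) and fell by 1.95 without that library.

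The promoters of these 2 genes of chromosome 9 are printed because both hold the 7-base AP-1 motif close to the start site, as does that of the inhibitor Serpinb8, which moved the other way. AP-1 is the dimer of Jun and Fos proteins, a long-known activator of metalloproteinase genes. The windows run 250 bases up to the RefSeq start site (GRCm38.p6), on the plus strand at chr9:7502092-7502341, chr9:7272264-7272513 and chr1:107589756-107590005, with TGAGTCA or TGACTCA in capitals.
Mmp10: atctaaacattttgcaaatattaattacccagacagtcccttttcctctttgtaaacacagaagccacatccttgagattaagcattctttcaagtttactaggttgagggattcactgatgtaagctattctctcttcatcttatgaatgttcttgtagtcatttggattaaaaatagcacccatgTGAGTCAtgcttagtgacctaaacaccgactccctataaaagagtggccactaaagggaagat
Mmp13: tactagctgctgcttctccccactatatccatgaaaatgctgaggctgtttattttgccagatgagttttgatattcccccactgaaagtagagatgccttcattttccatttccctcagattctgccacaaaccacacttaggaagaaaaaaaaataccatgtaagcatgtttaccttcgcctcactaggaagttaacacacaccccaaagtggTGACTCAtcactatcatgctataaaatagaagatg
Serpinb8: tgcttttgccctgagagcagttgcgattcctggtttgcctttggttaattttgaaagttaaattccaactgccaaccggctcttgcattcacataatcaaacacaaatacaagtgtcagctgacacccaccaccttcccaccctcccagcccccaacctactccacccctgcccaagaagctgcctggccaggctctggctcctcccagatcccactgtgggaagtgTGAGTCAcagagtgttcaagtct
The motif begins 63 bases before the start in Mmp10, 35 in Mmp13 and 23 in Serpinb8. RefSeq gave promoters for 54 of the 70 genes (63 windows), and TGAGTCA or its reverse complement TGACTCA was in 8 windows (12.7%), against 1466 of the 32851 promoters of that length in the table (4.46%). Besides those printed, the windows with a match were those of Plaur, Capn2, Prss36 and 2 of the start sites of Prss23. The 2 windows of Prss23 overlap and hold the same site, so the 8 windows are not independent. Genes with a match did not move together: Mmp10, Mmp13 and Prss36 fell, Serpinb8 and Capn2 rose, and Plaur and Prss23 did not pass the test. A match is a description of the letters and shows no binding.

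Among the other secreted members, Mmp19 was at 1.18, 1.82 and 1.05 FPKM in ID8 and at 0.311, 0.203 and 0.132 FPKM in KMF, and fell by 2.63 ± 0.39 (edgeR, adjusted p = 0.00129). Mmp11, stromelysin 3, was the most abundant secreted member, at 40.6, 38.8 and 33.8 FPKM in ID8 and 30.3, 16.9 and 20.2 FPKM in KMF. It fell by 0.71 ± 0.20 (edgeR, adjusted p = 0.0276), but the call was lost without ID8 replicate 1 or 2 or without KMF replicate 2 or 3 (edgeR, adjusted p between 0.0694 and 0.109). Mmp28, epilysin, went the other way. Its libraries held 2.38, 2.16 and 2.31 FPKM in ID8 and 8.23, 9.39 and 8.98 FPKM in KMF, a rise of 1.996 ± 0.11 (edgeR, adjusted p = 1.9e-05). Exons of opposite-strand genes cover 22.3% of the exon bases of Mmp19 (Tmem198b), 12.0% of Mmp28 (1700020L24Rik, at a mean of 1.04 FPKM in ID8 and 6.27 FPKM in KMF, the same direction as Mmp28) and 5.58% of Mmp11 (Chchd10, at a mean of 601 FPKM in ID8 and 270 FPKM in KMF). Whether counting used strand is not given in the sources used here, so reads from such pairs cannot be told apart. In all, 12 of the 70 genes share over 10% of their exon bases with another gene, among them Mmp24 (13.6%, BC029722), Adam15, Capn1, Capn2, Ctsl, Htra4 and Prss23.

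Membrane-type metalloproteinases, which are anchored at the cell surface, changed in both directions, with 3 lower, 1 higher and 1 that did not pass (47.5% of all fitted genes were called lower and 45.4% higher). Mmp14 (MT1-MMP), the activator of pro-MMP2 and the main pericellular collagenase, was at 37.7, 34.9 and 36.6 FPKM in ID8 and at 23.2, 25.5 and 18.1 FPKM in KMF. It fell by 0.67 ± 0.13 (edgeR, adjusted p = 0.00462) and stayed the most abundant listed membrane-type enzyme in both lines. Mmp15 (MT2-MMP) was at 11.6, 15.3 and 17.5 FPKM in ID8 and at 4.37, 5.94 and 4.18 FPKM in KMF, and fell by 1.58 ± 0.19 (edgeR, adjusted p = 0.00047). Mmp16 (MT3-MMP, chr4:17852893-18119145, plus strand) was all but lost. It had 122, 79 and 85 counts in the ID8 libraries and 1, 0 and 0 in the KMF libraries, a ratio of 288 with an exact 95% counting interval of 51.3 to 11424 (edgeR, adjusted p = 6.1e-05). Mmp17 (MT4-MMP, chr5:129584169-129608875, plus strand), which is held by a lipid anchor, rose instead. It was at 0.1697, 0.168 and 0.343 FPKM in ID8 and at 6.46, 2.42 and 2.70 FPKM in KMF, a rise of 4.13 ± 0.50 (edgeR, adjusted p = 0.000468), with KMF replicate 1 above the other KMF libraries. Mmp24 (MT5-MMP) was at 0.520, 0.779 and 0.253 FPKM in ID8 and at 3.15, 0.965 and 0.874 FPKM in KMF. Its lines did not overlap, and its log2 fold change of 1.72 ± 0.60 did not pass (edgeR, adjusted p = 0.0571). The estimate rested on KMF replicate 1, without which it was 0.88 (edgeR, adjusted p = 0.211), whereas it passed without ID8 replicate 2, KMF replicate 2 or KMF replicate 3 (edgeR, adjusted p between 0.0395 and 0.04999) and with DESeq2 (adjusted p = 0.0113).

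The TIMPs, which bind the active site of metalloproteinases, split into 2 that rose and 1 that fell, against 45.4% and 47.5% of all fitted genes. Timp1 (chrX:20870166-20874735, plus strand) was at 27.9, 33.2 and 27.1 FPKM in ID8 and at 60.3, 54.2 and 51.4 FPKM in KMF, a rise of 0.95 ± 0.12 (edgeR, adjusted p = 0.000565). Timp3 (chr10:86300372-86349506, plus strand), which stays bound to the matrix and also blocks ADAM17, was at 19.9, 20.7 and 18.6 FPKM in ID8 and at 96.4, 62.5 and 51.8 FPKM in KMF. It rose by 1.87 ± 0.22 (edgeR, adjusted p = 0.000421), and the opposite-strand Syn3, whose exons cover 21.3% of its exon bases, was listed at mean levels of 0.131 FPKM in ID8 and 0.0281 FPKM in KMF. Timp4 (chr6:115245616-115251849, minus strand) was at 12.9, 14.5 and 13.1 FPKM in ID8 and at 0.0599, 0.275 and 0.234 FPKM in KMF. It fell by 6.07 ± 0.32 (edgeR, adjusted p = 1.6e-05). Set side by side, the 10 listed Mmp genes summed to 117, 143 and 101 FPKM in ID8 and to 79.4, 64.4 and 56.9 FPKM in KMF, while the 3 listed Timp genes summed to 60.7, 68.4 and 58.9 FPKM in ID8 and to 157, 117 and 103 FPKM in KMF. Every KMF library was below every ID8 library in the Mmp sum and above every ID8 library in the Timp sum. In ID8 each library held more of the listed Mmp than of the listed Timp transcripts, and in KMF each held less. These sums cover only listed genes, which the authors had already called different between the lines, and were not tested. Mmp2, Mmp9 and Timp2 are not among them, so which of all Mmp and all Timp transcripts was larger in either line cannot be read.

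**Figure D2:**
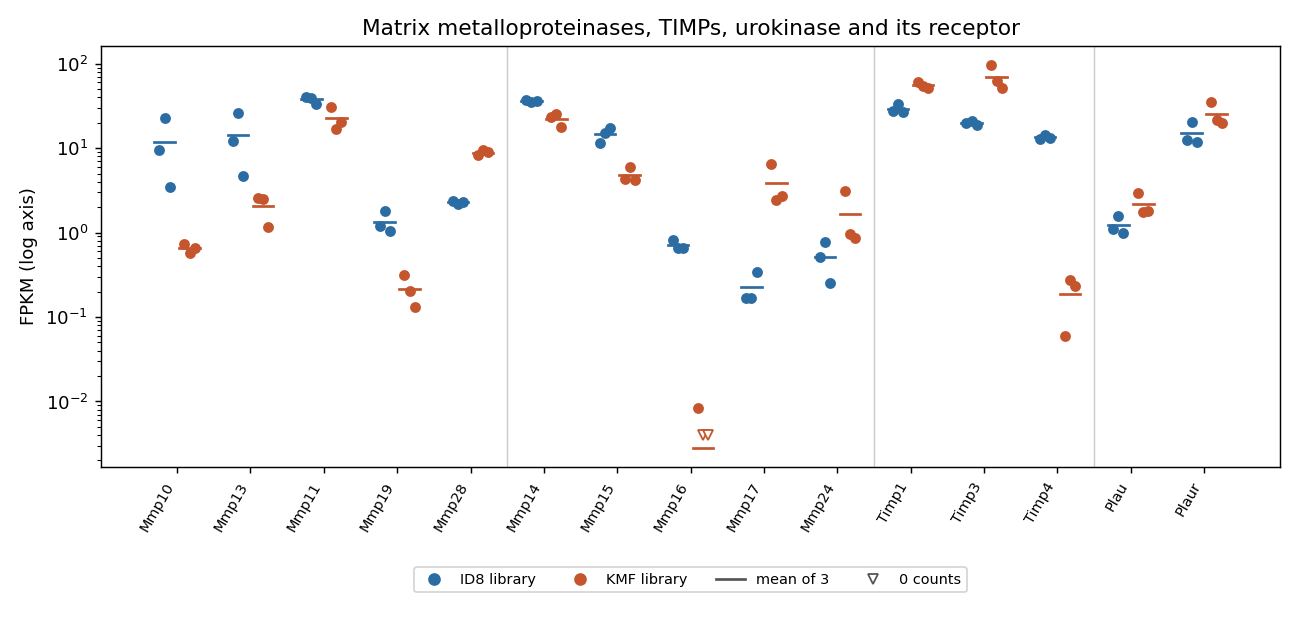
FPKM of each Mmp and Timp gene, of Plau and of Plaur in every library, on a log axis, with 1 point per library, ID8 in blue and KMF in orange, a line at the mean of 3 and open triangles for 0 counts. Mmp16 and Timp4 drop furthest from ID8 to KMF, Mmp17 and Mmp28 climb, and Mmp10 and Mmp13 spread over more than 5-fold within ID8.

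The 4 ADAM genes all rose, against 45.4% of all fitted genes. ADAMs are membrane-anchored sheddases that cut growth factors and receptors from the cell surface. Adam17, the main sheddase of TNF and of several EGF receptor ligands, was at 13.9, 13.8 and 13.1 FPKM in ID8 and at 21.1, 19.3 and 19.9 FPKM in KMF, a rise of 0.60 ± 0.07 (edgeR, adjusted p = 0.00052). Adam9 was the most abundant, at 43.7, 49.0 and 42.5 FPKM in ID8 and at 97.6, 104 and 106 FPKM in KMF, a rise of 1.22 ± 0.08 (edgeR, adjusted p = 4.2e-05). Adam15 held 24.5, 21.9 and 28.9 FPKM in ID8 and 53.8, 54.8 and 57.5 FPKM in KMF, a rise of 1.18 ± 0.10 (edgeR, adjusted p = 9.1e-05). The libraries of each line lay close together and far from those of the other line for all 3. The fourth member, Adam25, stayed below 1 FPKM in every library and rose by 1.19 ± 0.37, but 16.3% of the 100-base windows of its transcripts are shared with Adam20, Adam39 and a pseudogene, so its counts are uncertain. Its call was lost without ID8 replicate 1 or 2 or KMF replicate 1 or 2 (edgeR, adjusted p between 0.0983 and 0.134) and under upper quartile scaling (edgeR, adjusted p = 0.0597).

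ADAMTS proteases are secreted enzymes that cut proteoglycans and other matrix proteins. The 3 with a mean above 1 FPKM in ID8 fell, while those that rose stayed below 0.2 FPKM. Together with the ADAMTS-like proteins, 4 genes rose and 3 fell, against 45.4% and 47.5% of all fitted genes. Adamts9, a proteoglycan-cleaving enzyme, was at 26.8, 22.6 and 26.0 FPKM in ID8 and at 7.40, 6.63 and 6.25 FPKM in KMF, and fell by 1.85 ± 0.10 (edgeR, adjusted p = 1.6e-05). Adamts1, also a proteoglycanase, was at 1.69, 3.94 and 1.28 FPKM in ID8 and at 0.807, 0.700 and 0.573 FPKM in KMF. It fell by 1.70 ± 0.43 (edgeR, adjusted p = 0.0156), fell by 1.05 without ID8 replicate 2, and lost its call without KMF replicate 2 or 3 (edgeR, adjusted p = 0.05001 and 0.0616). Adamts7 was at 7.22, 7.09 and 7.23 FPKM in ID8 and at 5.45, 5.86 and 4.06 FPKM in KMF. It fell by 0.45 ± 0.14 (edgeR, adjusted p = 0.0414), a call lost without any 1 of the ID8 libraries or without KMF replicate 1 or 3 (edgeR, adjusted p between 0.0607 and 0.105). The ADAMTS-like proteins, which resemble ADAMTS enzymes but lack the protease domain, both rose. Adamtsl4, which binds fibrillin, went from 1.05, 1.20 and 0.927 FPKM in ID8 to 11.3, 7.25 and 7.43 FPKM in KMF, a rise of 3.07 ± 0.22 (edgeR, adjusted p = 5e-05). Adamtsl5 went from 1.97, 1.85 and 1.19 FPKM to 11.3, 8.97 and 10.2 FPKM, a rise of 2.64 ± 0.20 (edgeR, adjusted p = 6.5e-05). Adamts15 and Adamts13 also rose but stayed below 0.2 FPKM, the latter with 1, 0 and 1 counts in ID8 against 12, 20 and 25 in KMF, a ratio of 28.3 with a 95% counting interval of 7.48 to 239. The call of Adamts15 was lost without ID8 replicate 1 or 2 or KMF replicate 1 or 2 (edgeR, adjusted p between 0.0762 and 0.0859).

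Urokinase and its receptor, which activate plasminogen at the cell surface, had higher means in KMF but did not pass the test. Plau (chr14:20836662-20843388, plus strand) was at 1.11, 1.57 and 0.981 FPKM in ID8 and at 2.93, 1.75 and 1.82 FPKM in KMF. The lines did not overlap, and the log2 difference was 0.86 ± 0.30 (edgeR, adjusted p = 0.0551). Plaur (chr7:24462500-24475873, plus strand) was at 12.6, 20.6 and 11.7 FPKM in ID8 and at 34.9, 21.4 and 19.8 FPKM in KMF. Its log2 fold change was 0.80 ± 0.29 (edgeR, adjusted p = 0.0660), and the ranges of the lines overlapped, since ID8 replicate 2 lay above KMF replicate 3. Both passed without ID8 replicate 2 (edgeR, adjusted p = 0.0348 for Plau and 0.0157 for Plaur) and both passed with DESeq2 (adjusted p = 0.0410 and 0.0265). They also passed when p-values were adjusted over the fitted genes alone (edgeR, adjusted p = 0.0221 and 0.0265). Their inhibitors went in different directions. Serpinb2, plasminogen activator inhibitor 2, was at 1.27, 2.53 and 0.937 FPKM in ID8 and at 7.54, 11.5 and 7.65 FPKM in KMF, a rise of 2.53 ± 0.37 (edgeR, adjusted p = 0.00126). Serpine2, protease nexin 1, had 15, 11 and 6 counts in ID8 and 0, 1 and 0 in KMF, too few for the fit, with a ratio of 32.2 and a 95% counting interval of 5.39 to 1313.

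Serpins trap serine proteases, and a few trap cysteine proteases or have other work. Of the 15 listed, 12 were fitted and all 12 passed, 7 higher and 5 lower, where 92.9% of all fitted genes passed, 45.4% higher and 47.5% lower. The largest rise among the well-measured ones was that of Serpinb6c (ENSMUSG00000052180, chr13:33879816-33905708, minus strand), at 0.920, 1.498 and 0.529 FPKM in ID8 and at 28.8, 23.8 and 27.7 FPKM in KMF. It rose by 4.81 ± 0.31 (edgeR, adjusted p = 3.2e-05). Its neighbour Serpinb6a, an intracellular inhibitor present in most tissues, rose by 0.69 ± 0.09 from a mean of 175 ± 16.3 FPKM to 275 ± 10.7 FPKM (SD, n = 3 libraries per line). Transcripts of the 2 genes share no 100-base window, while 14.1% of the exon bases of Serpinb6a lie in exons of the opposite-strand Nqo2. Serpinb8, an inhibitor of furin in vitro, was at 3.25, 4.19 and 3.59 FPKM in ID8 and at 12.1, 13.3 and 12.3 FPKM in KMF, a rise of 1.81 ± 0.12 (edgeR, adjusted p = 3.5e-05). Serpinb11 fell by 2.71 ± 0.42 (edgeR, adjusted p = 0.00168), from 4.18, 12.5 and 5.80 FPKM to 0.977, 1.31 and 1.07 FPKM, and fell by 2.11 without ID8 replicate 2. Serpinb9, the granzyme B inhibitor, fell by 0.84 ± 0.20. Its relative Serpinb9b was at 0.897, 2.66 and 0.419 FPKM in ID8 and at 0.391, 0.293 and 0.185 FPKM in KMF, and it fell by 2.17 ± 0.68 (edgeR, adjusted p = 0.0389). Without ID8 replicate 2 the log2 fold change was -1.15, and the call was lost without any 1 library other than ID8 replicate 3 (edgeR, adjusted p between 0.0537 and 0.136). Serpinb10 had 0, 1 and 0 counts in ID8 and 66, 79 and 61 in KMF, a ratio of 204 with a 95% counting interval of 36.3 to 8112. It shares 291 exon bases with Serpinb2 on the same strand, 8.34% of its own and 12.4% of those of Serpinb2, so the counts of both are uncertain.

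The secreted serpins outside clade B were led by Serping1 (chr2:84765387-84775444, minus strand), the C1 inhibitor that restrains complement and contact-phase proteases. It was at 4.30, 4.57 and 1.32 FPKM in ID8 and at 0.144, 0.122 and 0.0341 FPKM in KMF, and fell by 5.10 ± 0.67 (edgeR, adjusted p = 0.000729). Serpini1, neuroserpin, fell by 1.31 ± 0.25 from 1.49 ± 0.235 to 0.588 ± 0.134 FPKM, and Serpina9 rose by 1.35 ± 0.31 while below 0.5 FPKM in every library, a call lost without ID8 replicate 1 or KMF replicate 2 (edgeR, adjusted p = 0.0550 and 0.0505). Serpinh1 (HSP47), a collagen chaperone of the endoplasmic reticulum without inhibitory activity, was among the 3 most abundant of the 70 genes. It was at 208, 234 and 190 FPKM in ID8 and at 264, 352 and 275 FPKM in KMF, a rise of 0.54 ± 0.14 (edgeR, adjusted p = 0.0158) that lost its call without ID8 replicate 1 (edgeR, adjusted p = 0.0572). Serpinb3b had no count in ID8 and 25, 8 and 14 in KMF, at least 5.33-fold higher against a floor of 3 counts per library. Serpina12 had 9, 7 and 2 counts in ID8 and none in KMF, at least 1.94-fold lower.

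All 4 listed cathepsins, proteases of lysosomes that can also be secreted, fell, against 47.5% of all fitted genes. Ctsh (chr9:90054152-90076089, plus strand), an aminopeptidase, was at 98.8, 94.1 and 77.2 FPKM in ID8 and at 22.4, 19.4 and 28.4 FPKM in KMF, and fell by 1.90 ± 0.15 (edgeR, adjusted p = 7.6e-05). Ctsf was at 15.6, 20.2 and 12.2 FPKM in ID8 and at 2.04, 2.59 and 1.25 FPKM in KMF, and fell by 3.01 ± 0.30 (edgeR, adjusted p = 0.000202). Ctsc, dipeptidyl peptidase 1, which activates granule serine proteases in immune cells, was at 3.39, 3.20 and 2.73 FPKM in ID8 and at 0.410, 0.351 and 0.525 FPKM in KMF, and fell by 2.80 ± 0.22 (edgeR, adjusted p = 6.6e-05). Ctsl was the most abundant of the 4 listed cathepsins in both lines and fell least, by 0.50 ± 0.17, from 138 ± 29.6 to 95.4 ± 10.8 FPKM (edgeR, adjusted p = 0.0478). Its call was kept only without ID8 replicate 3 when single libraries were left out (edgeR, adjusted p between 0.0707 and 0.169 in the other 5). In sum the 4 genes held 247 ± 40.8 FPKM in ID8 and 121 ± 6.94 FPKM in KMF (SD, n = 3 libraries per line).

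Cystatin genes lie in a cluster on chromosome 2, where 3 of the 4 fitted genes fell, against 47.5% of all fitted genes, and Cst11 was not fitted. The 3 that fell (Cst8, Cst9 and Cst12) and Cst11 belong to a subgroup known from the male reproductive tract that lacks conserved sites for inhibiting cysteine proteases, and are counted as inhibitors here by family alone. Cst8 (chr2:148798785-148805595, plus strand), known from the epididymis, was at 7.30, 7.93 and 5.48 FPKM in ID8 and at 0.105, 0.269 and 0.112 FPKM in KMF, and fell by 5.37 ± 0.39 (edgeR, adjusted p = 5.2e-05). Cst12 was at 5.53, 6.11 and 6.23 FPKM in ID8 and at 1.71, 1.14 and 0.234 FPKM in KMF, and fell by 2.54 ± 0.55 (edgeR, adjusted p = 0.00766), or fell by 3.14 without KMF replicate 1. Cst9 had 62, 45 and 34 counts in ID8 and 0, 3 and 0 in KMF, a ratio of 47.4 with a 95% counting interval of 15.9 to 232. Cst11 was too low to be fitted, with 21, 10 and 3 counts in ID8 against 2, 2 and 0 in KMF, a ratio of 8.57 with an interval of 3.06 to 33.2. By contrast Cst3, cystatin C, the main secreted inhibitor of cysteine cathepsins, was at 257, 263 and 261 FPKM in ID8 and at 310, 319 and 273 FPKM in KMF. Its rise of 0.25 ± 0.08 (edgeR, adjusted p = 0.0483) was lost in 13 of the 16 alternative analyses (adjusted p up to 0.340), 5 of which left out 1 library. Cst3 is counted among the 29 genes that rose and as higher in the count of neighbouring genes.

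**Figure D3:**
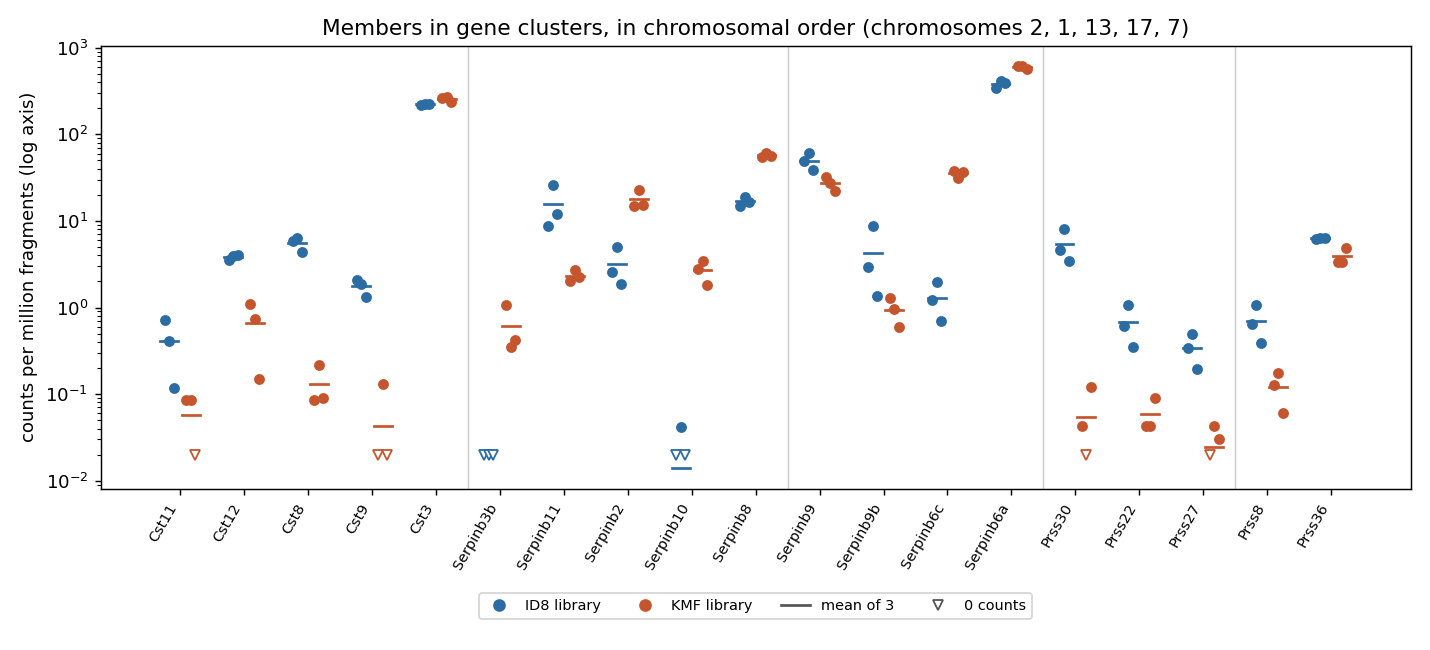
CPM, on a log axis, for members that lie together on chromosomes 2, 1, 13, 17 and 7 (left to right, in chromosomal order), with 1 point per library, a line at the mean of 3 and open triangles for 0 counts. In the cystatin cluster 4 genes, 1 of them not fitted, are lower in KMF and Cst3 is the highest gene in both lines. On chromosome 13 Serpinb9 and Serpinb9b are lower and Serpinb6c and Serpinb6a higher in KMF.

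Among the trypsin-like and Htra serine proteases 3 rose and 3 fell of the 7 that were fitted, against 45.4% and 47.5% of all fitted genes. Htra3 (ENSMUSG00000029096, chr5:35652041-35679782, minus strand), a secreted serine protease that is known for binding TGF-beta family proteins, was at 2.36, 3.52 and 2.496 FPKM in ID8 and at 45.4, 41.0 and 39.1 FPKM in KMF. It rose by 3.95 ± 0.17, the smallest adjusted p of the 70 genes (edgeR, adjusted p = 7.4e-06). Prss16, a thymus-specific serine protease, had 15, 4 and 3 counts in ID8 and 51, 54 and 92 in KMF, a rise of 3.17 ± 0.48 (edgeR, adjusted p = 0.00142) that was 4.09 without ID8 replicate 1. Prss30 (chr17:23972126-23975230, minus strand) was at 3.14, 5.55 and 2.36 FPKM in ID8 and at 0.0288, 0 and 0.0819 FPKM in KMF, and fell by 6.32 ± 0.66 (edgeR, adjusted p = 0.000234), or fell by 7.62 without KMF replicate 3. Its neighbours Prss22 and Prss27 were at 5 to 26 counts in each ID8 library and at 3 or fewer in each KMF library, with ratios of 10.7 (95% counting interval 4.30 to 34.2) and 13.6 (3.42 to 118). Prss35, a protease-like protein of ovarian follicles, was at 46.4, 39.4 and 83.2 FPKM in ID8 and at 33.0, 14.3 and 23.4 FPKM in KMF. It fell by 1.21 ± 0.35 (edgeR, adjusted p = 0.0275) and lost its call without ID8 replicate 3, KMF replicate 2 or KMF replicate 3 (edgeR, adjusted p between 0.0719 and 0.0913). Prss36 was at 2.05, 2.06 and 2.10 FPKM in ID8 and at 1.11, 1.10 and 1.61 FPKM in KMF. It fell by 0.65 ± 0.20 (edgeR, adjusted p = 0.0374), a call kept only without KMF replicate 3 when single libraries were left out (edgeR, adjusted p between 0.0755 and 0.142 in the other 5). Prss8, prostasin, an activator of epithelial sodium channels, had 19, 26 and 10 counts in ID8 and 3, 4 and 2 in KMF and was not fitted. Htra4 rose from 0, 1 and 0 counts to 18, 11 and 19, a ratio of 47.6 with a 95% counting interval of 8.15 to 1920. Tmprss9 had 31 counts over the ID8 libraries and 4 over the KMF libraries, a ratio of 7.81 with an interval of 2.76 to 30.5. Prss23 did not pass (log2 fold change 0.40 ± 0.14, edgeR, adjusted p = 0.0517), but passed without ID8 replicate 3 (edgeR, adjusted p = 0.00318) and without the filter on low counts (edgeR, adjusted p = 0.0437).

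Spint1 and Spint2 (HAI-1 and HAI-2) are the Kunitz-type inhibitors that hold matriptase, prostasin and hepsin in check on epithelial surfaces. Both fell, against 47.5% of all fitted genes. Spint1 (chr2:119237362-119249527, plus strand) was at 2.42, 2.32 and 1.24 FPKM in ID8 and at 0.164, 0.0373 and 0.0907 FPKM in KMF, and fell by 4.30 ± 0.49 (edgeR, adjusted p = 0.000376). Spint2 (chr7:29256331-29281977, minus strand) was at 20.99, 19.8 and 9.32 FPKM in ID8 and at 1.83, 1.19 and 0.537 FPKM in KMF, and fell by 3.81 ± 0.48 (edgeR, adjusted p = 0.000582). The lines were far apart for both, with ID8 replicate 3 the lowest ID8 library in each case. Matriptase itself, St14, had 51 counts over the ID8 libraries and 6 over the KMF libraries, a ratio of 8.57 with a 95% counting interval of 3.68 to 24.4. The promoters of the pair are shown because the 2 genes fell together and both windows are rich in CG dinucleotides. Each window is the 250 bases up to the RefSeq start site (GRCm38.p6), at chr2:119237110-119237359 on the plus strand for Spint1 and chr7:29281978-29282227 on the minus strand for Spint2, with CG dinucleotides in capitals.
Spint1: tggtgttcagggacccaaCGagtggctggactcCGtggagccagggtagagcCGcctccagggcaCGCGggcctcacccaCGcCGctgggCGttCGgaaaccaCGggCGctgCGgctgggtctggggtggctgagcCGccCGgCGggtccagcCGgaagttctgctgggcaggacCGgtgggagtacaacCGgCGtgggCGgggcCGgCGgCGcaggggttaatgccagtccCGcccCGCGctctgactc
Spint2: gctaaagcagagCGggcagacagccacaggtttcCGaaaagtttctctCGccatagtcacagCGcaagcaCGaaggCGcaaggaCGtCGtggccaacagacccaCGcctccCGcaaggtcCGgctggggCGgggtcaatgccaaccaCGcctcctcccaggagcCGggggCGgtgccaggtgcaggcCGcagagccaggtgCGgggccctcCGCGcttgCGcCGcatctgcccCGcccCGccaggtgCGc
Spint1 holds 26 and Spint2 24 CG dinucleotides, 0.797 and 0.794 of the number their C and G content would give, against a median of 6, at a ratio of 0.374, over all promoters. Neither window holds TGAGTCA or TGACTCA. Over the member windows the median was 8 CG dinucleotides, at a ratio of 0.459. High counts were also found in genes that rose (23 in Adam17 and 22 in Adamtsl5) and in others that fell (40 in Pcsk6 and 22 in Adamts9). A high count was therefore not particular to this pair or to genes that fell.

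Proprotein convertases, which activate many precursors of proteases and growth factors, were represented by 2 genes. Pcsk6 (PACE4, chr7:65861734-66050340, plus strand) was at 3.68, 3.11 and 0.689 FPKM in ID8 and at 0.117, 0.129 and 0.0622 FPKM in KMF, and fell by 4.60 ± 0.69 (edgeR, adjusted p = 0.00142). ID8 replicate 3 was well below the other ID8 libraries and still above every KMF library. Pcsk7 was at 7.51, 7.86 and 6.71 FPKM in ID8 and at 8.73, 9.66 and 8.96 FPKM in KMF. Its rise of 0.35 ± 0.10 (edgeR, adjusted p = 0.0308) was lost in 9 of the 16 alternatives (adjusted p up to 0.136), among them those without ID8 replicate 1, ID8 replicate 3 or KMF replicate 2 (edgeR, adjusted p between 0.0789 and 0.0845).

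Calpains, calcium-dependent cysteine proteases of the cytoplasm that cut adhesion and cytoskeletal proteins, all rose, against 45.4% of all fitted genes. Capn2, the catalytic subunit of m-calpain, was at 41.7, 45.6 and 47.6 FPKM in ID8 and at 88.6, 89.997 and 87.8 FPKM in KMF, a rise of 1.02 ± 0.07 (edgeR, adjusted p = 5.1e-05). Capns1, the small subunit shared by the classical calpains, was at 214, 227 and 211 FPKM in ID8 and at 328, 325 and 302 FPKM in KMF, a rise of 0.59 ± 0.08 (edgeR, adjusted p = 0.000713). Capn1, the catalytic subunit of mu-calpain, rose by 0.27 ± 0.07 from 27.1 ± 0.893 to 31.8 ± 2.08 FPKM (edgeR, adjusted p = 0.0228), a call lost without ID8 replicate 1 or 3 or KMF replicate 3 (edgeR, adjusted p between 0.0565 and 0.0971) and under upper quartile scaling (edgeR, adjusted p = 0.175). Capn5 was at 7.65, 7.86 and 10.4 FPKM in ID8 and at 25.8, 31.3 and 25.1 FPKM in KMF, a rise of 1.71 ± 0.14 (edgeR, adjusted p = 8.5e-05). Capn9, known from the digestive tract, was at 5.24, 4.48 and 11.6 FPKM in ID8 and at 14.4, 28.0 and 25.8 FPKM in KMF, a rise of 1.72 ± 0.38 (edgeR, adjusted p = 0.00895). The lines did not overlap for any of the 5, as for 99.1% of all called genes. Calpastatin (Cast), the dedicated inhibitor of classical calpains, also rose, by 0.70 ± 0.12 (edgeR, adjusted p = 0.00235).

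Many of these genes lie in clusters of related copies. Among listed genes within 100 kb of each other, 14 neighbouring pairs consisted of 2 members and 11 of them (78.6%) went in the same direction, against 2920 of 4455 neighbouring pairs of listed genes (65.5%), shares that were not tested against each other. In 6 of the 14 pairs 1 or both genes were too low to be fitted, and Serpinb2 and Serpinb10 share exons. Ctsh and Adamts7, 1 of the 11 pairs, are of different families and not related copies. Pairs within a cluster, such as those of the cystatins, share genes, so the pairs are not independent. On chromosome 13, Serpinb9 and Serpinb9b fell while Serpinb6c and Serpinb6a, further along the same cluster, rose.

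A wide spread within ID8 was seen for a larger share of these genes than of all fitted genes. In 9 of the 62 fitted members (14.5%) the highest ID8 library exceeded the lowest more than 3-fold in CPM, against 3.55% of all fitted genes. They were Adamts1, Adamts15, Mmp10, Mmp13, Mmp24, Pcsk6, Prss16, Serpinb9b and Serping1. In 8 of the 9 the lowest ID8 library was replicate 3, from passage 35, and in 6 the highest was replicate 2. The 9 genes were picked by this spread, and the same shares for other genes with such a spread are not given here. Adamts15 had only 1, 2 and 7 counts in the ID8 libraries and Prss16 only 15, 4 and 3. Over all 70 genes ID8 replicate 3 was the lowest ID8 library for 40 (57.1%), against 37.9% of all listed genes. The part of passage in this spread was not tested, since each passage is 1 library.

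**Figure D4:**
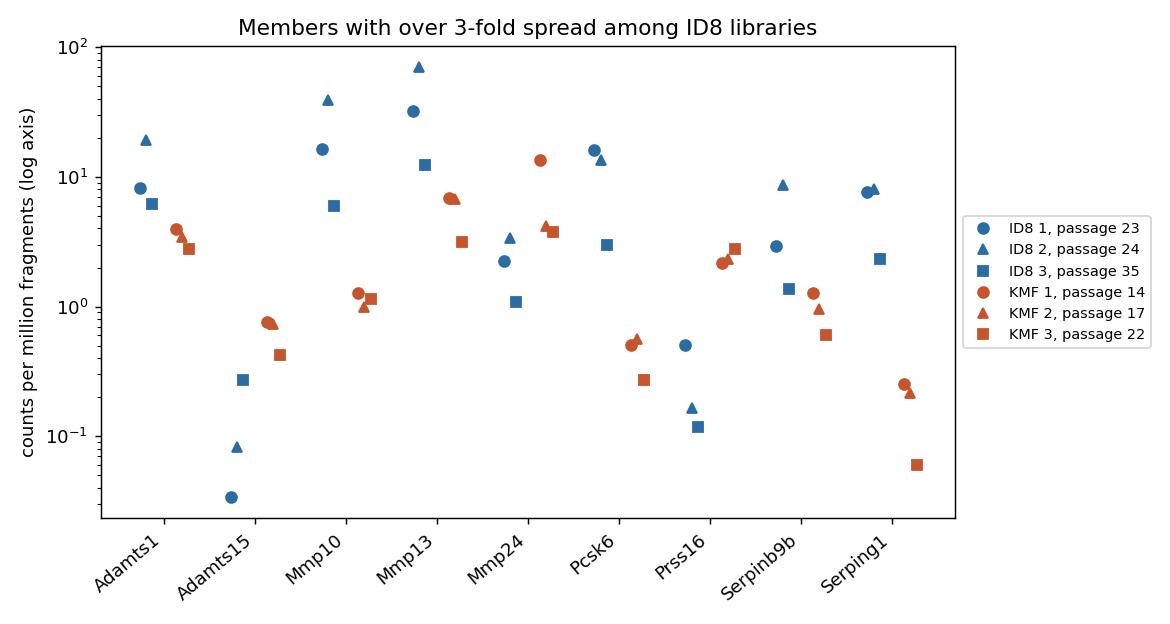
CPM, on a log axis, of the 9 fitted members whose ID8 libraries differed more than 3-fold, with 1 marker per library (circle, triangle and square for replicates 1, 2 and 3, ID8 in blue and KMF in orange). The ID8 square, from passage 35, is the lowest ID8 marker for every gene but Adamts15.

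The regulators and partners of these proteases were described from lists of related genes outside the symbol rule. Of 18 genes of the AP-1 and ETS families, 13 were listed, and of the 12 fitted 11 rose and 1, Ets1, fell (background 45.4% and 47.5%). Jun rose by 1.99 ± 0.34 (edgeR, adjusted p = 0.00244), from between 10.96 and 13.9 FPKM in ID8 to between 32.2 and 76.9 FPKM in KMF. Fos rose by 1.11 ± 0.34 (edgeR, adjusted p = 0.0331), but its lines overlapped, since ID8 replicate 2 (7.45 FPKM) lay above KMF replicate 1 (6.98 FPKM). The epithelial ETS factor Elf3 went from 7 counts over the ID8 libraries to 3893 over the KMF libraries, a ratio of 552 with a 95% counting interval of 268 to 1373. The listed gene that was not fitted, Etv1, was lower in KMF, with 131 counts over the ID8 libraries and 6 over the KMF libraries (ratio 22.0, interval 9.84 to 61.1). Of 26 receptors and cofactors of pericellular proteolysis 10 were listed, of which 7 rose, 2 fell and the thrombin receptor F2r did not pass (background again 45.4% and 47.5%). S100a10, the plasminogen-binding partner of annexin A2, rose by 1.35 ± 0.08 (edgeR, adjusted p = 2.2e-05) and Anxa2 by 0.51 ± 0.11 (edgeR, adjusted p = 0.00812). The trypsin- and matriptase-activated receptor F2rl1 (PAR2) rose by 3.31 ± 0.42 (edgeR, adjusted p = 0.000607), while F2rl2 (PAR3) fell by 5.24 ± 0.65 (edgeR, adjusted p = 0.000563) and thrombomodulin, Thbd, fell by 2.21 ± 0.26 (edgeR, adjusted p = 0.00045).

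Among 47 other proteases of the cell surface and secretory pathway 12 were listed, of which 2 rose, 9 fell and 1 was not fitted (background 45.4% and 47.5%). Cpe, carboxypeptidase E, which trims prohormones, was more abundant than any of the 70 genes in ID8, between 1605 and 1764 FPKM, and was between 317 and 364 FPKM in KMF. It fell by 2.31 ± 0.10 (edgeR, adjusted p = 7.4e-06). Enpep fell by 4.32 ± 0.46 (edgeR, adjusted p = 0.000273) and Masp1, a complement protease, fell by 2.54 ± 0.22 (edgeR, adjusted p = 0.000105), while Furin fell by 0.71 ± 0.08 (edgeR, adjusted p = 0.000419). Anpep, aminopeptidase N, rose by 1.83 ± 0.24 (edgeR, adjusted p = 0.000698). Of 31 genes outside the rule that were grouped as inhibitors 13 were listed, 9 of which rose, 3 fell and 1, Tfpi, did not pass (the same background). The 9 include Pcolce2 and Pcolce, enhancers of procollagen cleavage that are grouped here for their protease-binding domains. Pcolce2 rose by 5.42 ± 0.35 (edgeR, adjusted p = 3.3e-05) and Pcolce by 0.44 ± 0.08 (edgeR, adjusted p = 0.00254). Pi16 rose by 4.04 ± 0.27 (edgeR, adjusted p = 3.7e-05) and Wfdc1 by 3.86 ± 0.23 (edgeR, adjusted p = 2.6e-05).

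Markers of the labelled cell type and of other cells moved with these results. Of 14 markers of ovarian surface epithelium 9 were listed, and of the 8 fitted 7 fell and Msln rose (92.9% of all fitted genes passed, 47.5% lower and 45.4% higher), with summed levels between 308 and 380 FPKM in ID8 and between 222 and 279 FPKM in KMF. Wt1 and Gata4 stayed above 45 FPKM in every library, and the epithelial adhesion genes Cdh1 and Epcam were below 1 FPKM in every KMF library. Of 16 leukocyte markers only Cd74 was listed, between 0.857 and 1.59 FPKM in ID8 and between 0.215 and 0.391 FPKM in KMF. Of 12 fibroblast and endothelial markers 4 were listed and the 3 fitted ones, Dcn, Col1a1 and Pdgfra, fell (the same background), with summed levels between 66.2 and 96.7 FPKM in ID8 and between 12.97 and 24.2 FPKM in KMF. The part of these shifts in the protease and inhibitor results was not tested.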

How the data were processed

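Poly-A RNA of 6 libraries was prepared with the NEBNext Ultra kit and sequenced by a service provider. The paper's methods name TopHat2 for mapping, the submitters' processing notes name STAR 2.5 and CASAVA 1.8, and both name DESeq2; the build is mm10. The counting tool, annotation release and strand setting are not given in the sources used here. The authors deposited a raw count and an FPKM value per gene and library and the gene length in bases. The authors' deposited adjusted p-value was used only to recover that 17359 genes had been tested. The authors' fold changes and per-line means were not used. Since the deposited table lists only genes with an adjusted p-value under 0.05 on these libraries, calls are read against the share of all listed genes.

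The library totals were recovered from counts, FPKM and length. The test was that of edgeR 4.0.16 (R 4.3.3, TMM, filterByExpr, quasi-likelihood test, two-sided, no covariate), run on the counts of all 7320 listed genes, of which 6967 passed the filter and 6470 an adjusted p of 0.05. Genes outside the table were ranked below them in the adjustment. In data simulated on these genes, 99% of 200 genes changed by 1 log2 unit were recovered and 3 unchanged genes were called. The changed genes were drawn from those with higher counts, all genes had the same small spread, and the rest were unchanged. The simulation therefore checks the code only. It does not measure error or power in this table, where 92.9% of fitted genes were called and some members have few counts or a wide spread. Replicates differed by more than sampling noise (chi-square per degree of freedom at least 19.9). Where a line never exceeded 3 counts, counts are given in place of the fitted fold change, mostly with the ratio of summed counts per fragment and its exact 95% interval, or with a lower bound against 3 counts per library if all were 0. Intervals and floors cover counting error only. Same-numbered libraries of the lines did not deviate together (correlations 0.0737, -0.0877 and 0.108) and were not treated as pairs.

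Genes given in each library were every Mmp, Timp, Plau and Plaur gene and Serpine2, in each other class the 3 largest called rises and falls with a mean of at least 1 FPKM in either line, and the 3 most abundant members. Others are given by fold change or counts. The members, classes and gene lists were chosen with earlier results of these data known. Positions match GENCODE M21 for all 70 genes. Shared sequence was checked as identical 100-base windows of GENCODE transcripts, and promoters are those of RefSeq (GRCm38.p6). Alternatives were DESeq2 1.42.0, 3 other scalings, 2 other filters, limma 3.58.1 on log2 of FPKM plus 1 or 0.1, a replicate block, adjustment over the fitted genes alone and leaving out each library.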

Additional observations from a re-analysis of the deposited data

How the results depend on the processing

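No member called in both analyses changed direction under any of the 16 alternatives. Of the 50 fitted genes given by library, each could be fitted under 14 to 16 of them, 38 stayed on the same side of the threshold in all that could be run and 12 did not, with 49 values weaker (33 of them with a library left out) and 13 stronger. The median log2 fold change of the members, 0.31, became -0.51 with DESeq2, 0.26 with RLE size factors, 0.20 with upper quartile scaling, -0.46 with no low-count filter, 0.42 with at least 10 counts in every library, -0.11 with limma on log2(FPKM + 1) and -0.51 with limma on log2(FPKM + 0.1). Upper quartile scaling shifted the median of all fitted genes by -0.11. With at least 10 counts in every library 10 proteases rose (16 as reported; 4 of the 6 lost were not tested, Capn1 and Pcsk7 were) and 5 inhibitors fell (11; the 6 lost were not tested). With limma on log2(FPKM + 1) 19 members rose (29) and 9 proteases rose; 5 of the proteases lost were not tested, and Capn1 and Pcsk7 were. DESeq2 called 67 members, 32 higher and 35 lower. Leaving out 1 library called between 47 and 58 members, with a median between -0.12 and 0.32, between 23 and 30 higher, between 24 and 30 lower, between 12 and 16 proteases higher, between 14 and 17 lower, between 8 and 9 inhibitors higher and between 10 and 13 lower. Of all listed genes it called between 5189 and 5907. With the replicate block 53 members were called, 25 higher and 28 lower, and 5720 listed genes. The block lost 6 calls, of Adam25, Adamts15, Capn1, Cst3, Pcsk7 and Prss36, and gained that of Mmp24 (log2 fold change 1.61, edgeR, adjusted p = 0.0405). Genes with few counts in a line have wide intervals, and genes not listed cannot be compared.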
